A study of Homo sapiens with 27 samples.

Results

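The 2 mature strands of miR-708, hsa-miR-708-5p and hsa-miR-708-3p, were followed across small RNA libraries of human embryonic stem cells (hESCs, H1 line) and of K562, an established human chronic myeloid leukaemia line. They are 2 of the 2276 miRNAs listed in any of the 9 deposited count tables, and were picked by name after their higher levels in mutant and doxycycline-treated hESCs over wild-type (WT) hESCs were known. Values against WT hESCs are therefore given as a description, with no test. The 15 hESC libraries fell into 5 groups of 3, all from H1 cells. These were USB1 mutant hESCs with a PAPD5 knockdown (shPAPD5), USB1 mutant hESCs with an inducible wild-type USB1 (iUSB1) and doxycycline (+Dox), the same iUSB1 cells without doxycycline (-Dox), USB1 mutant hESCs, and WT hESCs. All 4 groups other than WT carried a loss-of-function deletion in USB1. The 12 K562 libraries fell into 4 groups of 3, namely USB1 knockout (KO) with a PARN knockdown (KO shPARN), KO, control with the PARN knockdown (control shPARN), and control.

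The mutant hESCs came from colonies picked after CRISPR/Cas9 editing, and the iUSB1 and shPAPD5 constructs were placed at the AAVS1 locus of mutant cells. The K562 KO line was cloned from a single cell. Small RNA libraries do not measure the USB1, PAPD5 or PARN mRNAs, so the knockout, knockdowns and induction were not checked here. The study describes its miRNA sequencing of WT and mutant hESCs, and of control and KO K562 cells, as biological replicates. It does not say how their cultures were separated, and the labels do not say it for any group. Each p-value thus rests on the spread among the libraries, which may be technical.

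A miRNA hairpin is cut into a duplex of a 5p and a 3p strand. Either can be loaded into an Argonaute protein, and the seed, bases 2 to 8 of the loaded strand, selects the mRNAs it represses. USB1 is a 3′ to 5′ RNA exonuclease, PAPD5 adds adenosines to RNA 3′ ends, and PARN is a deadenylase that removes them. The miR-708 hairpin is transcribed from within TENM4, a teneurin membrane protein gene, and in mouse cells both are induced by CHOP, a transcription factor of endoplasmic reticulum stress. miR-708 belongs with miR-28, which lies in an intron of LPP, to 1 seed family.

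In RefSeq's annotation of GRCh38.p14 the MIR708 hairpin lies on chromosome 11 from 79402022 to 79402109. It is in intron 1 of the 34-exon main transcript of TENM4, an intron of 142965 bases, 38399 bases from the exon before it and 104478 bases from the exon after it. A second miRNA gene, MIR5579, lies in the same intron, 20059 bases from MIR708. The sequences below show both arms beside the listed relatives whose sequence RefSeq gives, with the seed in capitals. The 5p arm spans chr11:79402077-79402099 and the 3p arm chr11:79402032-79402053, both on the minus strand. miR-3139 spans chr4:143343469-143343491 and miR-28-3p chr3:188688834-188688855, both on the plus strand.
miR-708-5p: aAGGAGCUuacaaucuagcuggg
miR-3139: uAGGAGCUcaacagaugccuguu
miR-708-3p: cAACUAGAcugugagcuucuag
miR-28-3p: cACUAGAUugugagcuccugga

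Among the 2370 mature human miRNAs that the RefSeq table gives, which are not all those listed in the counts, miR-708-5p and miR-3139 had the 5p seed AGGAGCU. In that table only miR-708-3p had the seed AACUAGA. The 3p arm and miR-28-3p did not share a 7-base seed. Shifted by 1 base, they were identical at 17 positions, with a longest shared run of 8 bases. miR-28-5p, the other strand of the miR-28 hairpin and the family member with the 5p seed, is described below by name only.

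The hESC libraries held 12258450 to 35734485 miRNA counts and the K562 libraries 1530929 to 13183152, with KO library 3 the shallowest. No 2 libraries of a group were the same within sampling noise (27 pairs, chi-square per degree of freedom 12.01 to 2087). The pluripotency miRNAs (miR-302 family, miR-367 and miR-371 to miR-373) were all 8 listed in hESCs and summed there to 181024 to 380939 CPM, a count put on a common scale for library size, the highest in mutant library 1. WT library 1 stood apart in miR-372-3p, at 6181 CPM against 405 and 402 CPM in WT libraries 2 and 3. K562 control libraries 1 and 2 held 398 and 428 CPM of the hESC miRNA miR-302b-3p, against 0.0955 CPM in control library 3 and at most 0.485 CPM in the KO and KO shPARN libraries. The blood miRNA list summed to 237 to 465 CPM in hESCs and to 7439 to 10611 CPM in K562. Fold changes of the miR-708 arms against WT hESCs or K562 control are given below also without WT library 1, or without control libraries 1 and 2. Those of other miRNAs are given with all libraries only.

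Both arms were well above detection in every hESC library. CPM values here are scaled by TMM, which sets libraries on a common scale through the bulk of their miRNAs. miR-708-5p ran from 44.7 to 216 CPM over the 15 hESC libraries (median 152) and miR-708-3p from 30.2 to 140 CPM (median 101). Among the 998 miRNAs tested in hESCs, 5p ranked between 112 and 225 and 3p between 128 and 277. The arms were thus neither among the leading miRNAs nor near the floor.

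By library, 5p stood at 178, 147 and 124 CPM in shPAPD5, 188, 202 and 191 CPM in +Dox, 158, 96.8 and 165 CPM in -Dox, 216, 152 and 129 CPM in mutant, and 44.7, 110 and 106 CPM in WT hESCs. All libraries of shPAPD5, +Dox and mutant were above all WT libraries, while -Dox library 2 lay within the WT range. The 3p arm stood at 86.8, 97.2 and 81.8 CPM in shPAPD5, 140, 139 and 127 CPM in +Dox, 85.3, 101 and 123.4 CPM in -Dox, 107, 131 and 105 CPM in mutant, and 30.2, 78.1 and 70.3 CPM in WT hESCs. For 3p no library of the 4 USB1 mutant groups overlapped WT. WT library 1 was the lowest of the 15 in both arms.

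**Figure D1:**
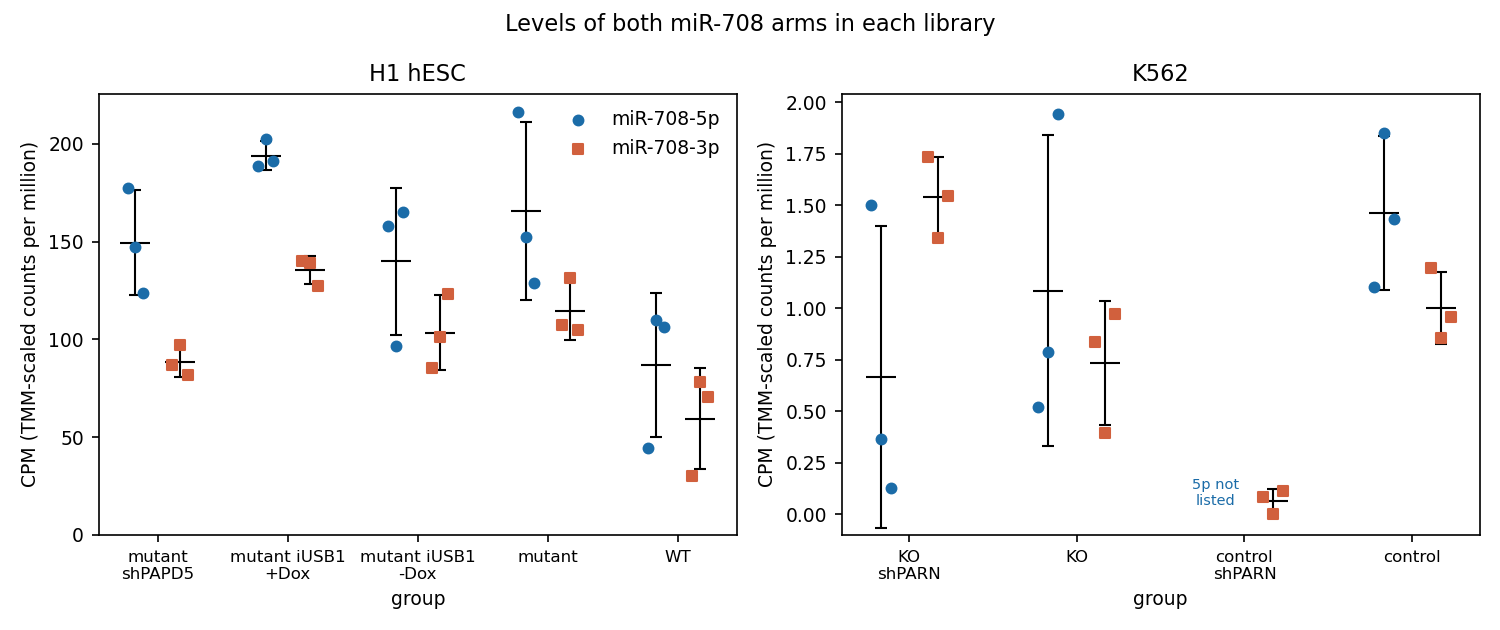
Level of miR-708-5p and miR-708-3p in each library (points), in TMM-scaled CPM on separate linear axes for hESCs and K562, with horizontal lines at the group means and bars for the SD (n = 3). In hESCs the WT points sit lowest, with WT library 1 at 44.7 CPM (5p) and 30.2 CPM (3p), and no K562 library exceeds 1.94 CPM. miR-708-5p was not listed for K562 control shPARN.

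By group mean, 5p fell in the order +Dox (194 ± 7.37 CPM, SD, n = 3 each), mutant (166 ± 45.4), shPAPD5 (149 ± 26.9), -Dox (140 ± 37.5) and WT (86.9 ± 36.6). Each neighbouring pair in that order had overlapping libraries. For 3p the order was +Dox (135 ± 7.23 CPM), mutant (115 ± 14.7), -Dox (103 ± 19.1), shPAPD5 (88.6 ± 7.89) and WT (59.5 ± 25.7), where only the step between shPAPD5 and WT had no overlap. +Dox was the top group for both arms and its libraries were the closest together.

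Against WT hESCs the fitted difference was positive for both arms in all 4 groups. In the mutant it was 0.93 (SE 0.30) for 5p and 0.95 (SE 0.26) for 3p on the log2 scale, or 1.91- and 1.93-fold, and the arms ranked 85 and 79 from the top of 998 miRNAs. In +Dox it was 1.16 (SE 0.30) for 5p and 1.19 (SE 0.26) for 3p, ranks 30 and 26. These 2 contrasts chose the miRNA, so the values only describe it. In -Dox the difference was 0.69 (SE 0.30) for 5p and 0.80 (SE 0.26) for 3p, and in shPAPD5 0.78 (SE 0.30) for 5p and 0.58 (SE 0.26) for 3p. All 4 comparisons share the 3 WT libraries. In these comparisons the median of all 998 miRNAs was 0.00 to 0.04. In bulk RNA, more cells that make a miRNA and more of it per cell cannot be told apart.

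For background, the share of miRNAs called higher at an adjusted p under 0.05 was 2.91% in mutant against WT, 0.902% in -Dox, 2.2% in +Dox and 0% in shPAPD5. In shPAPD5 against WT edgeR called 0 miRNAs in either direction, with 13% of unadjusted p below 0.05, while DESeq2 called 21. The share with all 3 libraries above all 3 WT libraries was 14.3% in mutant, 11.4% in -Dox, 15.1% in +Dox and 9.22% in shPAPD5. Both arms lay above WT in this way in all groups except 5p in -Dox, and nothing is read from this, since the rule used these contrasts.

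WT library 1 set much of the size of these differences. Without it, the mutant differed from WT by 0.60 for 5p and 0.61 for 3p, +Dox by 0.84 and 0.87, -Dox by 0.37 and 0.48, and shPAPD5 by 0.46 and 0.25 (log2, 5p before 3p). Without both WT library 1 and mutant library 1, the mutant values were 0.38 for 5p and 0.67 for 3p. The pluripotency list summed to 191930 to 228931 CPM in shPAPD5, 208348 to 270731 CPM in +Dox and 219827 to 281664 CPM in -Dox. It summed to 253563 to 380939 CPM in mutant and 181024 to 196135 CPM in WT, whose range overlapped that of shPAPD5. Its members did not all move alike. miR-302b-3p stood at 184434, 149596 and 168181 CPM in mutant against 100364, 119767 and 118121 CPM in WT. miR-372-3p was lower in mutant (183, 148 and 135 CPM), -Dox (177, 217 and 114) and +Dox (50.1, 33.2 and 70.2) than in WT (6181, 405 and 402). In shPAPD5 it overlapped WT (687, 427 and 542 CPM). The part of this list in the miR-708 differences was not tested. The neural list (miR-9, miR-124 and miR-219a-2) summed to 1313 to 1634 CPM in shPAPD5, 683 to 907 CPM in +Dox, 678 to 1022 CPM in -Dox, 722 to 891 CPM in mutant and 897 to 1808 CPM in WT.

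**Figure D2:**
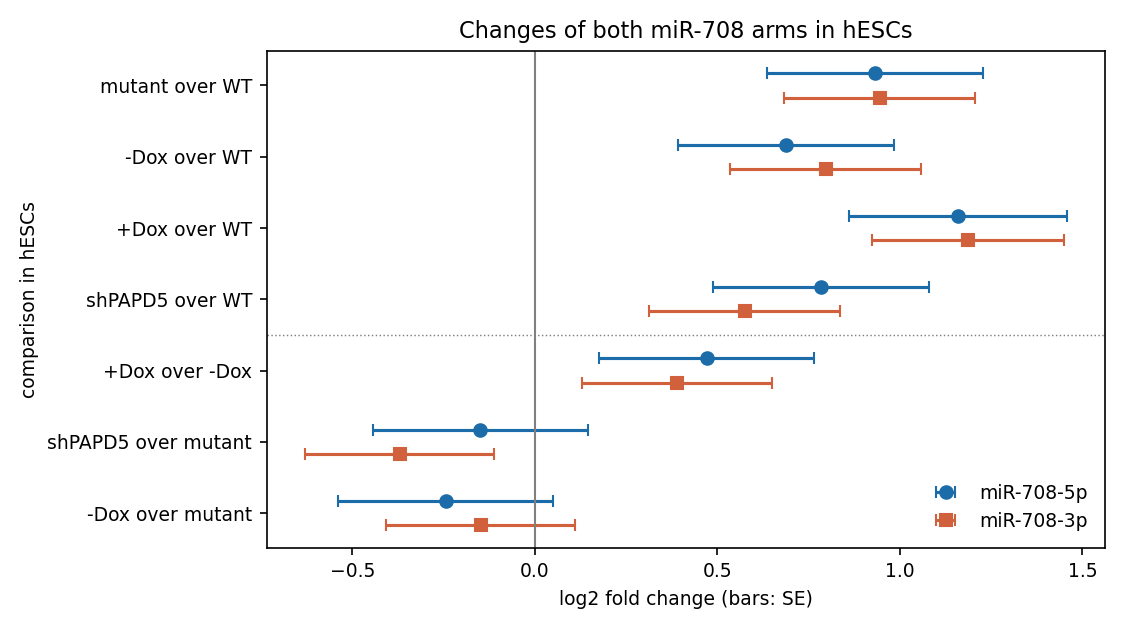
Fitted log2 fold change of miR-708-5p (circles) and miR-708-3p (squares) in each hESC comparison, the group named first over the group named second, with bars for the SE. Above the dotted line both arms sit right of 0 in all 4 comparisons with WT (0.58 to 1.19), and below it, within mutant hESCs, they lie between -0.37 and 0.47.

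Whether USB1 induction, PAPD5 knockdown or the iUSB1 construct itself moved miR-708 was tested within mutant hESCs, in contrasts that did not choose it although they include mutant or +Dox libraries that did. With doxycycline all 3 libraries lay above all 3 -Dox libraries in both arms, which held for 6.51% of the miRNAs tested. The difference was 0.47 (SE 0.29, 95% interval -0.15 to 1.09) for 5p and 0.39 (SE 0.26, -0.16 to 0.94) for 3p, and neither passed (edgeR adjusted p = 0.994 for both). The +Dox libraries helped to choose miR-708 for its high level, so a lower value with doxycycline was less likely from the start. Per library total, the 3p separation was lost, with +Dox library 3 at 120.3 CPM and -Dox library 3 at 120.4 CPM. edgeR called 0 of the 998 miRNAs here, a share of 0%, with 4.51% (45) of unadjusted p below 0.05, while DESeq2 called 1.

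With PAPD5 knocked down, the arms differed from the mutant by -0.15 (SE 0.29, 95% interval -0.77 to 0.47, edgeR adjusted p = 0.897) for 5p and by -0.37 (SE 0.26, -0.92 to 0.18, adjusted p = 0.615) for 3p. By library the groups overlapped for 5p, whereas all 3p values in shPAPD5 (81.8 to 97.2 CPM) lay below all in the mutant (105 to 131 CPM), as for 7.21% of miRNAs. Per library total these 3p values overlapped, with shPAPD5 library 1 at 104.5 CPM and mutant library 3 at 90.8 CPM. The 5p sign rested on mutant library 1, since the value was 0.12 without it. The mutant libraries helped to choose miR-708 for its high level, so a value below theirs was more likely from the start. edgeR called 0 of 998 miRNAs (0%), with 11.6% (116) of unadjusted p below 0.05, while DESeq2 called 8.

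Uninduced iUSB1 cells carry the same deletion as the mutant plus the construct. They differed from the mutant by -0.24 (SE 0.29, 95% interval -0.86 to 0.38, edgeR adjusted p = 0.820) for 5p and by -0.15 (SE 0.26, -0.70 to 0.40, adjusted p = 0.879) for 3p. Both arms overlapped between the groups. Here too the mutant libraries, which helped to choose miR-708 for its high level, are the reference, so a lower value was more likely from the start. The 5p value was 0.0050 without mutant library 1. edgeR called 0 of 998 miRNAs (0%), with 8.92% (89) of unadjusted p below 0.05, while DESeq2 called 2.

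The balance between the strands was close to even in hESCs. The 5p share of all miR-708 counts was 67.2%, 60.2% and 60.2% in shPAPD5, 57.4%, 59.3% and 60.1% in +Dox, 64.9%, 48.8% and 57.2% in -Dox, 66.9%, 53.7% and 55.1% in mutant, and 59.7%, 58.5% and 60.1% in WT. In 14 of 15 libraries 5p was the more abundant strand, the exception being -Dox library 2 at 48.8% (95% Wilson interval 47.0% to 50.7%). The most 5p-rich library, shPAPD5 library 1, had an interval of 65.7% to 68.6%. Intervals cover counting error only.

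Most hairpins were far more one-sided. Over the 233 hairpins with both arms tested in hESCs, the median absolute log2 ratio of 5p to 3p counts was 3.08, whereas miR-708 stood at 0.55, and 28 hairpins were closer to even.

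The log2 ratio of 5p to 3p counts (0.5 added to each) averaged 0.74 ± 0.25 in shPAPD5, 0.52 ± 0.08 in +Dox, 0.41 ± 0.48 in -Dox, 0.51 ± 0.44 in mutant and 0.55 ± 0.05 in WT (SD, n = 3 each). Relative to WT it differed by 0.19 in shPAPD5, -0.03 in +Dox, -0.14 in -Dox and -0.04 in mutant, given as a description. The mutant value was -0.30 without mutant library 1, 0.10 without mutant library 2 and -0.29 when mutant library 1 and WT library 1 were both left out, and the -Dox value was 0.10 without -Dox library 2. Over all 233 hairpins the median absolute difference between mutant and WT was 0.40. Within mutant hESCs no difference in the ratio passed an exact two-sided permutation test, for which 3 against 3 libraries cannot go below p = 0.1. The difference was 0.11 for +Dox against -Dox (exact p = 0.7), 0.24 for shPAPD5 against mutant (exact p = 0.5) and -0.09 for -Dox against mutant (exact p = 0.9). The adjusted p over the 7 arm ratio comparisons tested was 0.9 for each of them.

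**Figure D3:**
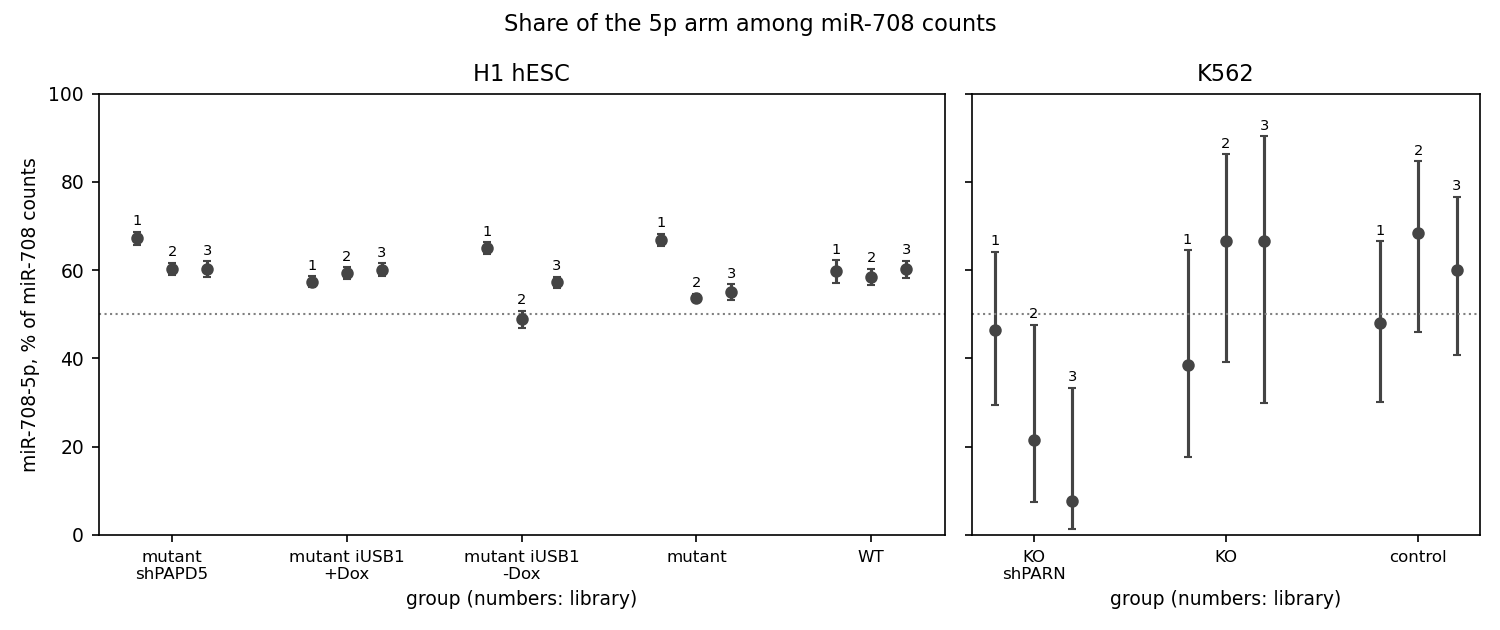
Share of miR-708 counts that were 5p in each library, in percent, with 95% Wilson intervals. The hESC libraries run from 48.8% to 67.2% with narrow intervals, while the K562 libraries, with 6 to 28 miR-708 counts each, run from 7.69% to 68.4% with wide ones.

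The arms moved together across libraries. The Pearson correlation of their log2 CPM was 0.87 over the 15 hESC libraries, and 0.71 after subtracting each group's mean. Both arms come from the same libraries and share their depth and scaling, so this is a description. By the same measure over 418 miRNAs, the patterns most like that of 5p were those of miR-625-3p (r = 0.88), miR-96-5p (0.88), miR-345-5p (0.88), miR-421 (0.87) and then miR-708-3p itself (0.87). For 3p they were miR-345-5p (0.89), miR-625-3p (0.88), miR-708-5p (0.87), miR-149-5p (0.85) and miR-363-3p (0.82). miR-345-5p and miR-625-3p were on both lists.

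Of the relatives, both strands of miR-28 were lower on average in the 4 USB1 mutant groups than in WT. miR-28-3p averaged 495 ± 69.0 CPM in shPAPD5, 466 ± 25.9 in +Dox, 431 ± 30.8 in -Dox, 450 ± 124 in mutant and 723 ± 59.5 CPM in WT (SD, n = 3 each), so that its differences from WT ran from -0.75 to -0.55 on the log2 scale. All 3 libraries of each USB1 mutant group were below all 3 WT libraries for this miRNA, as for 11.5% of miRNAs in mutant, 11.6% in -Dox, 15.4% in +Dox and 10% in shPAPD5. miR-28-5p averaged 26.9 to 35.5 CPM in the USB1 mutant groups and 44.1 CPM in WT, with differences of -0.71 to -0.31. miR-3139, which has the same seed as 5p, averaged 0.902 to 1.64 CPM in the USB1 mutant groups and 0.994 CPM in WT, with differences of -0.15 to 0.72. These comparisons with WT share the libraries that chose miR-708 and carry no test.

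The neighbour in the same TENM4 intron was much rarer. miR-5579-3p had 17 to 66 counts a library in the USB1 mutant groups and 2, 10 and 19 in WT hESCs. Its means were 1.76 CPM in shPAPD5, 3.33 in +Dox, 1.74 in -Dox, 1.51 in mutant and 0.709 CPM in WT, and its differences from WT were 1.37, 2.28, 1.35 and 1.17 in the order of those 4 groups (log2, SE 0.52 to 0.54). WT library 3, at 1.39 CPM, lay within the mutant (1.11 to 1.99 CPM), -Dox (0.983 to 2.35) and shPAPD5 (1.32 to 2.06) ranges. No value without WT library 1, which held 2 counts, is given for these differences. +Dox was the highest group for this miRNA as for both miR-708 arms. miR-5579-5p was listed in all 4 USB1 mutant groups, at 6 to 53 counts a library, and not in the WT table. A table lists only miRNAs with a count in its first library, so this means 0 counts in WT library 1, and the other WT libraries are not known.

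In the comparisons within mutant hESCs none of the 7 relatives and neighbours tested (miR-28-3p, miR-28-5p, miR-3139, miR-5579-3p, miR-151a-3p, miR-151a-5p and miR-151b) passed, with edgeR adjusted p of 0.301 to 0.997. The largest difference with doxycycline was that of miR-5579-3p, at 0.93 (SE 0.47, adjusted p = 0.994). The abundant miR-151a-3p, whose sequence resembles this family, differed by -0.09 there (adjusted p = 0.994).

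**Figure D4:**
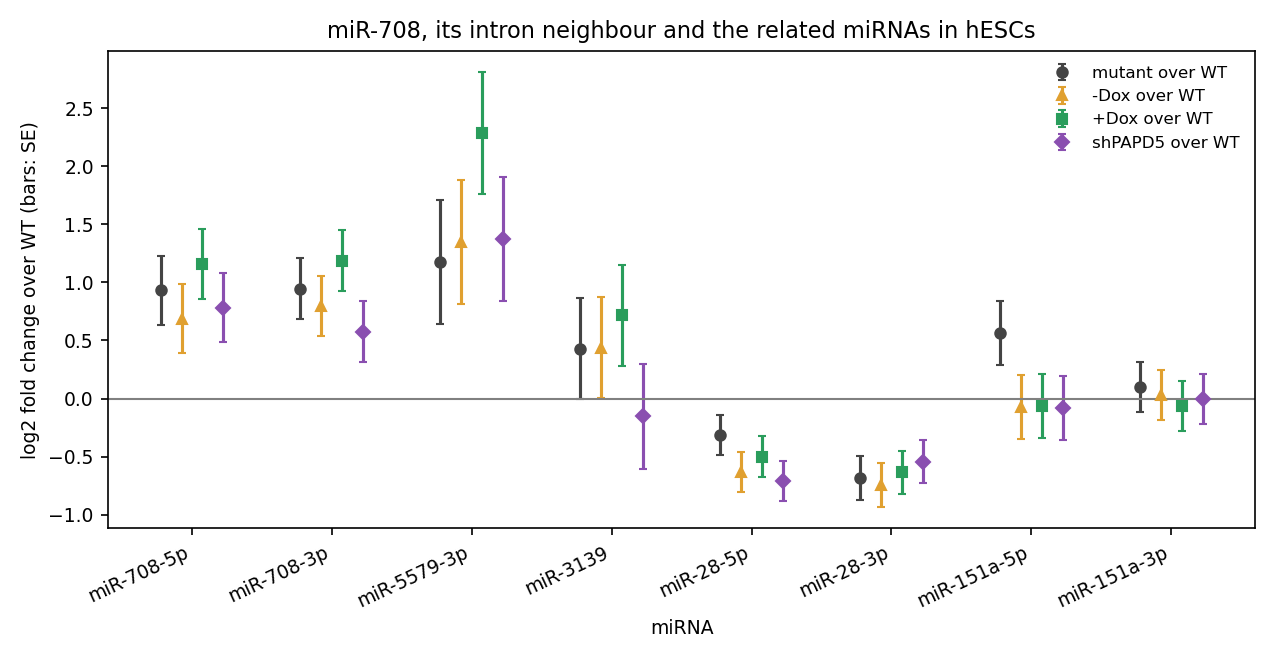
Fitted log2 fold change over WT hESCs of the miR-708 arms, the neighbouring miR-5579-3p and the related miRNAs, with 1 symbol for each USB1 mutant group and bars for the SE. The miR-708 arms and miR-5579-3p lie above 0 in all 4 groups, both miR-28 strands lie below it, and miR-151a-3p stays between -0.06 and 0.10.

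In K562 miR-708 was close to the limit of detection. miR-708-5p had 13, 3 and 1 counts in KO shPARN, 5, 8 and 4 in KO, and 12, 13 and 15 in control libraries, and was not listed for control shPARN. There it had 0 of 13183152 counts in library 1, which allows up to 0.254 CPM (3 counts), and the other 2 libraries are not known. miR-708-3p had 15, 11 and 12 counts in KO shPARN, 8, 4 and 2 in KO, 1, 0 and 1 in control shPARN, and 13, 6 and 10 in control. In the 12 libraries 3p ranked between 653 and 878 of the 881 miRNAs tested. It passed the filter on low counts through KO shPARN, the only group with all 3 libraries over the filter's level, so its being tested depended on a group where it is high. All 3p tests between K562 groups are to be read with this limit, since they come from 1 fit of the 12 libraries. For KO shPARN against control shPARN and for the interaction, a value without the filter is also given.

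In CPM, 3p averaged 1.54 ± 0.195 in KO shPARN, 0.734 ± 0.302 in KO, 0.0656 ± 0.0584 in control shPARN and 1.002 ± 0.176 in control (SD, n = 3 each). The KO shPARN libraries (1.34 to 1.73 CPM) lay above all others, which held for 17.4% of miRNAs against KO, 16.5% against control shPARN and 18.5% against control. Per library total this did not hold, since KO shPARN library 2 (1.22 CPM) was then below control library 1 and KO library 3 (1.31 CPM each). The control shPARN libraries (0 to 0.112 CPM) lay below all others, as 11.4% of miRNAs did against control. The 5p arm averaged 0.665 ± 0.733 CPM in KO shPARN, 1.08 ± 0.754 in KO and 1.46 ± 0.374 in control, with overlapping libraries between each neighbouring pair in that order.

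Between KO shPARN and control shPARN, 3p was higher with the knockout (log2 difference 4.29, SE 0.71, edgeR adjusted p = 0.0027), where 4.99% of 881 miRNAs were called higher. Without a filter on low counts the value was 4.27 (adjusted p = 0.00291). The groups held 38 and 2 counts in all, a ratio of 23.6 with an exact counting interval of 6.09 to 202. Since 1 group held 2 counts, the fitted fold depends on the count added before taking logs and is no bound. The call also stood when any 1 of the 6 libraries was left out (3.77 to 4.70, adjusted p 0.00471 to 0.0184).

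Between control shPARN and control, 3p was lower with the PARN knockdown (-3.68, SE 0.73, edgeR adjusted p = 0.0239), and was 1 of the 2 miRNAs (0.227%) called lower. It entered this test through the KO shPARN libraries, which are outside the comparison, and no value without the filter is given here. The counts were 2 and 29, a ratio of 0.0641 (exact interval 0.00741 to 0.253). This call was lost when control library 1, control library 2, control shPARN library 1 or control shPARN library 2 was left out, with values of -4.10 to -3.18 and adjusted p of 0.0356 to 0.116 over the 6 libraries. It was also lost without both control libraries that held miR-302b-3p (-3.60, adjusted p = 0.535). Control library 3, at 0.0955 CPM of miR-302b-3p, had 10 counts of 3p and 15 of 5p.

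In KO cells the PARN knockdown went with 38 counts of 3p against 14, a fitted difference of 1.19 (SE 0.56, edgeR adjusted p = 0.186) that did not pass, where 9.08% of miRNAs were called higher. The difference between the knockout's effect with and without the PARN knockdown was 4.87 (SE 0.92, adjusted p = 0.0335), in a contrast where 1.36% of miRNAs were called higher, and 4.85 (adjusted p = 0.0294) without the filter. It passed without KO library 3 or KO shPARN library 3, and did not when any 1 of the other 10 libraries was left out (4.35 to 5.26, adjusted p 0.0236 to 0.128), nor without control libraries 1 and 2 (4.77, adjusted p = 0.409). Pluripotency miRNAs summed to 1.42 to 4.88 CPM in KO shPARN, 0.485 to 4.71 CPM in KO, 8.29 to 21.4 CPM in control shPARN and 8.79 to 742 CPM in control. The fibroblast list (miR-199, miR-214, miR-143, miR-145, miR-21, miR-22, miR-10b and miR-29a, all 11 listed) had higher sums with the PARN knockdown. It summed to 173469 to 304974 CPM in KO shPARN and 103883 to 129434 CPM in KO. In control shPARN it summed to 264229 to 359985 CPM, in control to 115268 to 143902 CPM, and in hESCs to 20209 to 29837 CPM. Not all members rose with the knockdown. miR-143-3p stood at 365, 179 and 292 CPM in control shPARN against 1343, 821 and 1149 CPM in control. miR-199a-3p stood at 40.5, 40.4 and 31.3 CPM in KO shPARN against 74.7, 84.7 and 50.5 CPM in KO. In the other pair of groups each of these miRNAs overlapped. There miR-143-3p stood at 13712, 1126 and 249 CPM in KO shPARN, with library 1 apart from the others. The part of either list in the 3p calls was not tested.

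The knockout without the PARN knockdown did not move either arm past the test. For 3p the difference from control was -0.59 (SE 0.57, 95% interval -1.80 to 0.63, edgeR adjusted p = 0.623), and for 5p -0.70 (SE 0.58, -2.02 to 0.62, adjusted p = 0.548), where 1.93% of miRNAs were called higher and 3.18% lower. KO shPARN differed from control by 0.60 for 3p (SE 0.50, adjusted p = 0.453) and by -1.06 for 5p (SE 0.75, adjusted p = 0.387), with 8.51% called higher and 5.56% lower. Leaving out 1 library moved KO against control to -0.20 for 3p without KO library 2, and for 5p to -0.34 without KO library 1 and -1.10 without KO library 3. Without control libraries 1 and 2, KO differed from control by -0.51 for 3p and -0.69 for 5p, and KO shPARN by 0.66 for 3p and -1.08 for 5p. Without KO shPARN library 1 the 5p value was -2.45 (adjusted p = 0.0950). The 5p values come from fits of only the groups compared, since 5p was not listed for control shPARN.

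In KO shPARN the 5p share varied between libraries. It was 46.4%, 21.4% and 7.69% in KO shPARN, against 48.0%, 68.4% and 60.0% in control and 38.5%, 66.7% and 66.7% in KO. All 3 KO shPARN libraries lay below all 3 control libraries. The log2 ratio differed by -2.16 from control (exact p = 0.1, the smallest possible) and by -2.04 from KO (exact p = 0.2), with an adjusted p of 0.7 for both. With 13 to 28 counts a library, the intervals were wide, as in KO shPARN library 3 (1.37% to 33.3%).

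Among the relatives in K562, miR-151a-3p was higher in KO shPARN than in KO (0.81, edgeR adjusted p = 0.00505), where 9.08% of miRNAs were called higher. It was also higher than in control shPARN (0.65, adjusted p = 0.0173, 4.99% called higher) and control (0.53, adjusted p = 0.0335, 8.51% called higher). Per library total, KO shPARN library 2 (30917 CPM) was below control library 1 (35877 CPM), so those groups then overlapped. miR-28-3p differed by 2.47 between KO shPARN and control shPARN (SE 0.89, adjusted p = 0.110). In KO shPARN it stood at 20.6 CPM in library 1 against 1.47 and 1.42 CPM in libraries 2 and 3. Neither strand of miR-5579 was listed for any K562 group. Over the 12 K562 libraries the pattern of 3p was most like those of miR-4485-3p (r = 0.86), miR-192-5p (0.77), miR-100-5p (0.73), miR-4661-5p (0.73) and miR-629-5p (0.72), as a description over 419 miRNAs.

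miR-708 was far higher in hESCs than in K562, where it was scarce. WT hESCs held 86.9 ± 36.6 CPM of 5p, against 1.46 ± 0.374 CPM in control K562, when each line was scaled on its own. Scaled together over the 894 miRNAs tested in both, 5p was higher by 7.003 (SE 0.48, edgeR adjusted p = 7.69e-06) and 3p by 6.96 (SE 0.48, adjusted p = 8.47e-06) in WT hESCs, or 128- and 124-fold. Of all miRNAs, 37.9% were called higher in WT hESCs. Scaling by library totals gave 5.78 for 5p and 5.74 for 3p while moving the median of all miRNAs from 0.07 to -1.13. Each line is in tables of its own, so the line and the preparation of its libraries cannot be told apart. Without WT library 1 the differences were 7.39 for 5p and 7.33 for 3p, and without control libraries 1 and 2 they were 6.94 and 6.97 for the same arms. The log2 strand ratio differed by 0.05 between the lines (exact p = 0.8). The miR-28 strands were also higher in WT hESCs, by 9.10 for miR-28-3p (adjusted p = 1.99e-07) and 7.10 for miR-28-5p (adjusted p = 2.29e-05), whereas miR-151a-3p differed by 0.68 (adjusted p = 0.0156).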

How the data were processed

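Small RNA was sequenced from 27 libraries, 3 in each of 9 groups (Lexogen small RNA kit). The authors trimmed reads with cutadapt 2.5, aligned them to miRBase 22 with Bowtie2 2.2.9 without a mismatch in the seed, and used SAMtools 1.3.1. Strand, isoform and paralog handling are not given in the sources used here. The authors deposited whole-number counts for each mature strand in 9 tables. A table lists a miRNA only where its first library had a count of 1 or more. No column of values was left unused (0).

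Counts were tested with edgeR 4.0.16 in R 4.3.3 (TMM scaling, filterByExpr with a minimum count of 10 and a minimum total of 15, robust quasi-likelihood fit), with Benjamini-Hochberg adjustment over all miRNAs tested and a threshold of 0.05. One fit held the 15 hESC libraries (998 miRNAs tested of 1251 listed in every group), one the 12 K562 libraries (881 of 1080), and one WT hESCs and control K562 (894 of 1288). miR-708-5p was not listed for control shPARN, so its K562 values come from fits of only the groups compared, rather than from the planned fit of all 12. KO shPARN against KO was below the low-count filter for it, and no value is given for comparisons with control shPARN. Arm ratios were compared by exact permutation tests (scipy 1.17.1). K562 control columns named their group but not which sample, so their library numbers are only names.

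The members and lists were chosen with earlier results of these data known. The miRNAs named are both arms, miRNAs sharing a seed or host gene with them and their opposite strands, the miR-28 and miR-151 strands, and the 5 miRNAs of mean log2 CPM of at least 3 whose log2 CPM correlated best with each arm in each line. miR-151a sequences and those of the hairpins are not printed. Of 10 named miRNAs 6, and of 2276 listed 2031, matched the RefSeq mature table by name. The alternatives were DESeq2 1.42.0, DESeq2 size factors, library totals, other low-count filters, fits of only the groups compared, a replicate block, other pseudocounts, unlisted miRNAs counted as 0, and leaving out each library. Leaving out K562 control libraries 1 and 2, or WT library 1 with mutant library 1, was added after seeing the data. The fitting procedure was tested on simulated data, with changes placed only in miRNAs of higher counts than miR-708 had in K562. That test therefore does not cover the K562 calls on miR-708.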

Additional observations from a re-analysis of the deposited data

Results flagged for a closer look

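The effect of the USB1 knockout on miR-708-3p in K562 differed between cells with and without the PARN knockdown, by 4.87 on the log2 scale (edgeR interaction, adjusted p = 0.0335). The 3p counts behind it were 15, 11 and 12 in KO shPARN, 1, 0 and 1 in control shPARN, 8, 4 and 2 in KO, and 13, 6 and 10 in control libraries. In K562, 3p passed the low-count filter through KO shPARN, where it is high. The call was lost when any 1 of 10 of the 12 libraries was left out (adjusted p up to 0.128).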

How the results depend on the processing

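Over 24 fold changes of the arms and 343 alternative values, 322 were counted as the same and 21 were not. In tested comparisons, the same meant an unchanged direction and side of the threshold. In those against WT hESCs, which carry no test, it meant a shift smaller than the SD of log2 CPM within the groups. For the arm ratio, 11 of 92 alternative values over 11 differences had the other sign. The 5p difference between shPAPD5 and mutant turned with library totals (0.0075, where the median of all miRNAs moved to 0.13 with totals, against -0.03 with TMM) and without WT library 1 and mutant library 1 (0.13), and that between -Dox and mutant without the same libraries (0.017). The cause was not tested. Without K562 control libraries 1 and 2, which leaves 1 control library assumed to vary like the other groups, 3p lost its call in control shPARN against control (-3.60, adjusted p = 0.535) and in the interaction (4.77, adjusted p = 0.409), and the arm ratio of WT hESCs to control K562 turned (-0.011). Library totals also moved the median of all miRNAs to -0.29 in control shPARN against control, where 3p stood at -3.92, and to -0.14 in KO shPARN against KO, where it stood at 0.996. DESeq2 gave no adjusted p for 3p in KO shPARN against control shPARN or in the interaction.

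Leaving out 1 library at a time gave ranges of -0.28 to 0.12 for 5p in shPAPD5 against mutant, -0.37 to 0.0050 for 5p in -Dox against mutant, -4.10 to -3.18 for 3p in control shPARN against control, and 4.35 to 5.26 for the 3p interaction. The arm ratio ranged from -0.30 to 0.10 for mutant against WT, -0.37 to 0.10 for -Dox against WT, -0.07 to 0.01 for +Dox against WT, -0.13 to 0.34 for +Dox against -Dox, -0.33 to 0.16 for -Dox against mutant, -0.43 to 0.38 for KO against control, and -0.26 to 0.33 for WT hESCs against control K562.

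Equal library numbers gave no clear pairing of the samples, and for K562 control, whose numbers are only names, pairing cannot be judged. The correlations of same-numbered deviations ran from -0.15 to 0.33 in hESCs (8 of 30 over 0.1, 16 of 30 best with their own number) and from -0.21 to 0.33 in K562 (4 of 18 over 0.1, 8 of 18 best with their own number). With a replicate block no call on either arm changed. 3p stood at 4.33 in KO shPARN against control shPARN (adjusted p = 0.00472), -3.70 in control shPARN against control (adjusted p = 0.0373) and 4.89 in the interaction (adjusted p = 0.0417).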
